A study of Homo sapiens with 9 samples.

Results

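SLC7A11, GPX4, GCLM, GCLC, TXNRD1, HMOX1, FTH1, FTL, NQO1 and SRXN1 carry much of the defence of a cell against peroxides, through cystine uptake, glutathione, thioredoxin and the storage of iron. The 10 genes were chosen by name and not by a threshold on a measured value, out of 11664 genes listed in at least 1 of 3 deposited tables. That choice, and that of the gene lists below, was made with earlier results of these data known, so neither is independent of them. All 10 were listed for CM from CRC-MPS relative to control, 9 for CM from ESC relative to control and 8 for CM from CRC-MPS relative to CM from ESC. A gene was listed in a table only where p was under 0.05 in the authors' own test, so an unlisted gene has no value there.

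RNA was sequenced from HT29 cells, a human colorectal adenocarcinoma line, in 3 groups of 3 libraries. By the labels, control cells were starved of serum for 24 h and received no conditioned medium (CM); the paper's methods give other lengths of starvation for its cancer cells, and the labels give none for the treated groups. A second group received, for 24 h, CM from stromal cells isolated from epiploic adipose tissue (EPAT), the fat appendages of the colon; these cells are called ESC and the group ESC CM. The third group received, for 24 h, CM from the CRC-MPS, a microphysiological system in which EPAT and HT29-GFP cells lay between sheets of ESC (CRC-MPS CM). The labels give adipose tissue as the source of this CM, and the obese state of its donors comes from the paper alone. By the paper's methods the CRC-MPS culture medium held fetal bovine serum and was diluted in serum-free medium before use, so effects of serum and of secreted products cannot be told apart in a comparison with serum-free control. The CRC-MPS CM also came from wells that held cancer cells, and its effects cannot be split between EPAT and those cells. The libraries carry biological replicate numbers 1 to 3, and the paper states that its experiments were repeated independently, but neither ties a number to a culture or a day, so the p-values measure the spread between these libraries.

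Cystine enters the cell through a transporter of which SLC7A11 is the transport subunit, is reduced to cysteine and is joined to glutamate by the enzyme of GCLC and GCLM in the rate-limiting step of glutathione synthesis. GPX4 uses glutathione to reduce lipid peroxides in membranes, and its loss leads to ferroptosis, a form of cell death that depends on iron. Many of these genes are known targets of the transcription factor NRF2, which binds antioxidant response elements, and the ferritins FTH1 and FTL keep iron from driving the formation of radicals.

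Promoter sequences of RefSeq (assembly GRCh38.p14), from 250 bases before to 50 bases after each start, were found for 7 of the 10 genes, in 10 windows. They are shown where they hold the core letters of an antioxidant response element, because this element is the feature the members are best known to share. The letters searched were TGACNNNGC and TGAGNNNGC on both strands, and such a match can also hold letters of an AP-1 site. GCLM, NQO1 and TXNRD1 held a match, 3 of 7 genes, and FTL, GCLC, GPX4 and SRXN1 held none in their windows. Of all 35116 promoter windows 29.1% held one. That share is per window and not per gene, so the count of genes is not read as more than it. A match is a description of letters and not a binding site, and GPX4 and TXNRD1 have more than 1 window. In the runs below the capitals mark the match, each run is written 5′ to 3′ on the strand of the gene, and the GCLM run, on the minus strand at chr1:93909431-93909680, gives the 250 bases before its start.
GCLM: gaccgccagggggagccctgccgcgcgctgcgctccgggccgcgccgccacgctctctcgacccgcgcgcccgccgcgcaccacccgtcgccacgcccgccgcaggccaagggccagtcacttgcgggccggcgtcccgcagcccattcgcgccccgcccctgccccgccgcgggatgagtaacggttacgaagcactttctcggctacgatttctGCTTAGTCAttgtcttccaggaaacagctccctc
NQO1: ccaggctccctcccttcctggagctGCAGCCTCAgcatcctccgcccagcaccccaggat
TXNRD1, the upstream start: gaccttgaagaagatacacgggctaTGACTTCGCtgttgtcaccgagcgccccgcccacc
TXNRD1, the downstream start: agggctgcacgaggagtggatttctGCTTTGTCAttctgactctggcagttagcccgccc

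The marked match of GCLM lay at bases -34 to -26 before its start, on the opposite strand. A second match of GCLM, of the TGAGNNNGC letters, lay at -8 to 1 and runs past the end of the printed bases. The NQO1 run is from the minus strand at chr16:69726645-69726704, with its match at -119 to -111. The TXNRD1 runs are from the plus strand at chr12:104215655-104215714 and chr12:104286905-104286964, with matches at -99 to -91 and at -102 to -94 of their own starts, and each of these windows held 1 further match. FTL is shown for another reason: its mRNA starts with an iron-responsive element, through which iron regulatory proteins are known to block translation when iron is scarce, so that the RNA level does not give the level of ferritin protein. The letters of that element, in capitals in this run from the plus strand at chr19:48965329-48965358, were searched on both strands with any base allowed at the ninth, and 3 of the 35116 windows held them. FTH1 had no window and could not be searched, and its RNA level does not give the level of ferritin protein either.
FTL: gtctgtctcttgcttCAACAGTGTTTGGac

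Levels are in TPM, a unit scaled for library size and transcript length, and are given for replicates 1, 2 and 3 in that order and then as mean ± SD with n = 3. Control and CRC-MPS CM levels come from the table of those groups, and ESC CM levels from the table of ESC CM and control unless another is named. Differences are log2 fold changes on the log2(TPM + 1) scale with their standard error (SE) from limma, p-values were adjusted by Benjamini-Hochberg over all 58780 annotated genes, and a gene was called higher or lower at an adjusted p under 0.05 and a fold over 1.5. Relative to control, 5 of the 10 genes rose with CRC-MPS CM (GCLM, HMOX1, TXNRD1, SRXN1 and GCLC) and none fell, where 20.0% of all listed genes were called higher and 19.8% lower (2001 and 1981 genes, or 1556 and 2441 with libraries centred on their median). FTH1, FTL and NQO1 passed the adjusted p but not the fold, where 37.3% of listed genes passed it in the higher direction. Since every listed gene had already passed a p under 0.05 in the authors' test, these shares are of genes selected to differ, and no count over the listed members is read as support. The median log2 fold change of the 10 genes was 0.59, against -0.01 over all 10019 listed genes and 0.18 over the 9065 of them at a mean of at least 1 TPM, where all 10 lie. With ESC CM 2 of the 9 listed genes rose, GCLM and HMOX1, and none fell, where 17.3% of listed genes were called higher and 19.6% lower. TXNRD1, FTH1, FTL, NQO1 and SRXN1 passed the adjusted p alone, where 37.6% of listed genes passed it in the higher direction. The median of the 9 was 0.37, against -0.05 over all 10007 listed genes and 0.14 over the 9138 at a mean of at least 1 TPM. In the direct comparison of the CM 0 of 8 listed genes were called by limma, where 0.494% of 2835 listed genes were called, and all 8 had an unadjusted limma p under 0.05. Among all 2835 listed genes 1791 had such a p.

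**Figure D1:**
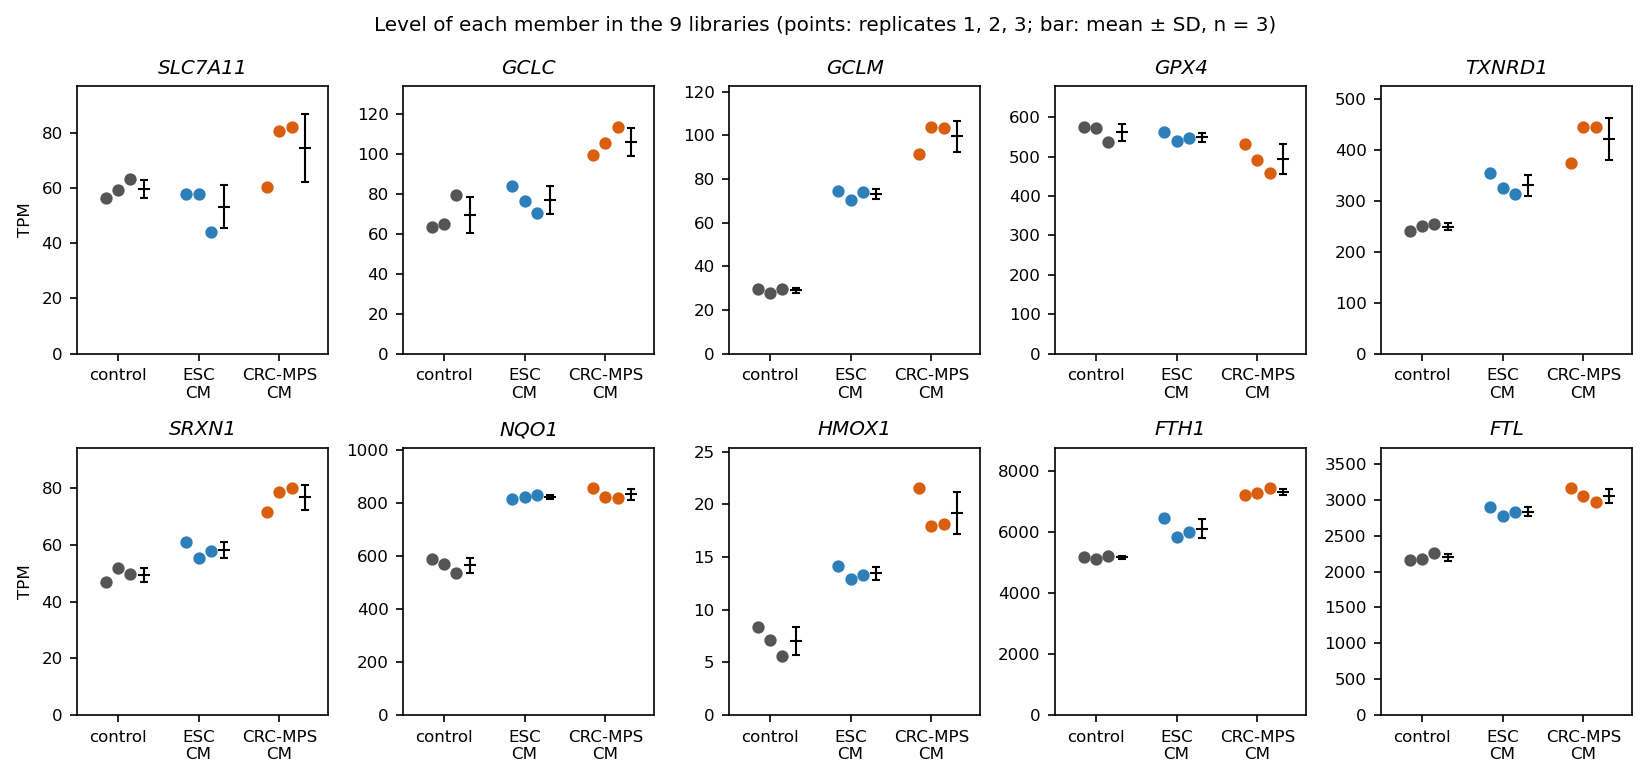
Level of each of the 10 genes in TPM, in the control, ESC CM and CRC-MPS CM libraries; points are the 3 libraries of a group and bars their mean and SD. GCLM rose from 27.5 to 29.5 TPM in control to 91.3 to 104 TPM with CRC-MPS CM, while the SLC7A11 libraries of control and CRC-MPS CM overlapped.

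SLC7A11 (chr4:138164097-138242349 on hg38, minus strand), the cystine-glutamate exchanger, was the only one of the 10 genes whose mean was below control with ESC CM and above it with CRC-MPS CM. Its level was 56.6, 59.4 and 63.4 TPM in control (59.8 ± 3.40), 57.8, 58.0 and 44.2 TPM with ESC CM (53.4 ± 7.90), and 60.6, 81.0 and 82.4 TPM with CRC-MPS CM (74.7 ± 12.2). Both CM overlapped with control, and replicate 1 of CRC-MPS CM lay among the control libraries. The log2 fold change with CRC-MPS CM was 0.30 (SE 0.11, adjusted p = 0.180), and without that library it was 0.45 (adjusted p = 0.00436), still under the fold of 1.5. With ESC CM it was -0.16 (SE 0.11, adjusted p = 0.946). Between the CM the libraries did not overlap, and the log2 difference of 0.48 (SE 0.14, 95% interval 0.16 to 0.79) had an adjusted p of 0.774.

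A list of 9 genes of cysteine supply and use left out SLC7A11 itself but held its partner chain SLC3A2 beside genes of other routes. With CRC-MPS CM 5 were listed, of which 3 fell and none rose, and with ESC CM 6 were listed, of which 4 fell and none rose, where 19.8% and 19.6% of all listed genes were called lower. The medians of the listed members were -0.88 and -0.74. CTH, which makes cysteine from cystathionine, fell from 20.9, 32.6 and 31.5 TPM in control to 11.2, 13.5 and 16.3 TPM with CRC-MPS CM (log2 fold change -0.99, SE 0.18, adjusted p = 0.00567), with no overlap. With ESC CM it fell to 9.10, 9.63 and 3.97 TPM (-1.82, SE 0.29, adjusted p = 0.00283). SLC3A1, a subunit of a cystine transporter of the apical membrane, fell from a mean of 12.2 to 0.780 TPM with CRC-MPS CM and to 0.46 TPM with ESC CM. SLC1A1, a transporter of glutamate and cysteine, fell from 80.3 to 43.0 TPM with CRC-MPS CM (-0.88) and from 80.0 to 43.1 TPM with ESC CM (-0.88). SLC3A2, the partner chain that carries SLC7A11 to the membrane, was not listed for CRC-MPS CM and fell with ESC CM, from 402, 534 and 497 TPM to 349, 361 and 240.0 TPM (-0.60, SE 0.16, adjusted p = 0.0404).

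GCLM (chr1:93885205-93909456, minus strand), the modifier subunit of glutamate-cysteine ligase, had the largest log2 fold change of the listed members with either CM. It was at 29.5, 27.5 and 29.5 TPM in control (28.9 ± 1.14), 74.6, 70.5 and 73.9 TPM with ESC CM (73.0 ± 2.22) and 91.3, 104 and 103 TPM with CRC-MPS CM (99.4 ± 7.02). The 3 groups did not overlap. Its log2 fold change was 1.75 with CRC-MPS CM (SE 0.073, 3.36-fold, adjusted p = 5.6e-06) and 1.31 with ESC CM (SE 0.057, 2.48-fold, adjusted p = 7.26e-06). The difference of 0.44 between the CM (SE 0.069, 95% interval 0.28 to 0.60) had an adjusted p of 0.158.

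GCLC (chr6:53497341-53616970, minus strand), the catalytic subunit of the same enzyme, rose with CRC-MPS CM only by a small margin over the fold of 1.5. It was at 63.6, 64.9 and 79.7 TPM in control (69.4 ± 8.95), 84.2, 76.6 and 70.4 TPM with ESC CM (77.1 ± 6.92) and 99.5, 106 and 114 TPM with CRC-MPS CM (106 ± 7.19). The ESC CM libraries overlapped with control, and those with CRC-MPS CM lay above both. Its log2 fold change was 0.61 with CRC-MPS CM (SE 0.094, 1.53-fold, adjusted p = 0.00200) and 0.15 with ESC CM (SE 0.098, 95% interval -0.07 to 0.38, adjusted p = 0.967). The call with CRC-MPS CM was lost to the fold of 1.5 without control replicate 1 (0.55), control replicate 2 (0.57) or CRC-MPS CM replicate 3 (0.56), and with libraries centred on their median (0.53). Between the CM the difference was 0.46 (SE 0.082, 95% interval 0.28 to 0.65, adjusted p = 0.212).

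Both subunits are measured per length, so their levels can be set against each other. The ratio of GCLM to GCLC TPM was 0.464, 0.424 and 0.371 in control (0.420 ± 0.0471), 0.886, 0.920 and 1.05 with ESC CM (0.952 ± 0.0863) and 0.918, 0.984 and 0.906 with CRC-MPS CM (0.936 ± 0.0420). The ratio was lower in every control library than in any library with a CM, and the ranges of the CM overlapped. An exact permutation test of 3 libraries against 3 cannot go below p = 0.1, so none was run on the ratio.

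Glutathione turnover moved in both directions. Of 13 genes on this list, 10 were listed with CRC-MPS CM, 3 of them higher and 3 lower by the call, with a median of 0.00. With ESC CM 7 were listed, again 3 higher and 3 lower, with a median of 0.31. Of all listed genes 20.0% were called higher and 19.8% lower with CRC-MPS CM, and 17.3% and 19.6% with ESC CM. CHAC2 and CHAC1, which both break glutathione down, went opposite ways. CHAC2 rose from 8.21, 7.41 and 9.43 TPM in control to 22.6, 27.7 and 26.5 TPM with CRC-MPS CM (1.51, SE 0.12, adjusted p = 4.92e-05). CHAC1, which the unfolded protein response is known to induce, fell from 53.3, 81.9 and 68.4 TPM to 25.4, 28.5 and 28.0 TPM (-1.26, SE 0.14, adjusted p = 2.91e-04). GGCT, which acts on the products of the CHAC enzymes, rose from a mean of 123 to 238 TPM with CRC-MPS CM (0.95). CHAC2, CHAC1 and GGCT were also called with ESC CM, at 1.36, -1.87 and 0.93 in that order. GSS, which completes glutathione, was not called (60.6 against 74.6 TPM in control, -0.29, adjusted p = 0.0154), and GSR, which reduces oxidized glutathione, was listed only between the CM (57.0 TPM with CRC-MPS CM against 47.8 TPM with ESC CM, adjusted p = 0.705). On a list of 10 genes that supply NADPH, which GSR needs, 3 were called higher and 3 lower with CRC-MPS CM among 9 listed. With ESC CM 3 were called higher and 1 lower among 9 listed, and the shares of all listed genes are those given above.

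GPX4 (chr19:1103926-1106791, plus strand), the lipid peroxide reductase, was the only one of the 10 genes with its lowest mean under CRC-MPS CM. It was at 576, 572 and 536 TPM in control (561 ± 22.0) and 532, 492 and 458 TPM with CRC-MPS CM (494 ± 37.3), with no overlap. Its log2 fold change of -0.19 (SE 0.066, 95% interval -0.34 to -0.04) did not pass the test (adjusted p = 0.141), and without CRC-MPS CM replicate 1 it was -0.24 (adjusted p = 0.0370), under the fold of 1.5. GPX4 was not listed for ESC CM and control. In the table of the CM it was at 562, 540 and 547 TPM with ESC CM (549 ± 11.3), above each CRC-MPS CM library (-0.16, SE 0.062, adjusted p = 1).

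TXNRD1 (chr12:104215779-104350305, plus strand), which keeps thioredoxin reduced in the cytosol, rose with CRC-MPS CM. It was at 241, 250 and 255 TPM in control (249 ± 6.85), 354, 325 and 313 TPM with ESC CM (331 ± 20.8) and 375, 445 and 445 TPM with CRC-MPS CM (422 ± 40.7). The groups did not overlap, and replicate 1 of CRC-MPS CM was nearer to the ESC CM libraries than the other two. The log2 fold change of TXNRD1 was 0.75 with CRC-MPS CM (SE 0.073, 1.69-fold, adjusted p = 1.55e-04) and 0.41 with ESC CM (SE 0.053, 1.33-fold, adjusted p = 9.07e-04, under the fold of 1.5). The difference between the CM was 0.35 (SE 0.079, 95% interval 0.17 to 0.53, adjusted p = 0.444).

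SRXN1 (chr20:646615-653370, minus strand), which restores overoxidized peroxiredoxins, followed the same order of levels. It was at 46.9, 51.9 and 49.5 TPM in control (49.4 ± 2.49), 61.1, 55.4 and 57.9 TPM with ESC CM (58.1 ± 2.85) and 71.7, 78.5 and 79.9 TPM with CRC-MPS CM (76.7 ± 4.40). No groups overlapped. For SRXN1 the log2 fold change was 0.62 with CRC-MPS CM (SE 0.070, 1.54-fold, adjusted p = 3.41e-04) and 0.24 with ESC CM (SE 0.062, adjusted p = 0.0404). With libraries centred on their median the first of these was 0.54 and under the fold of 1.5, and the second had an adjusted p over 0.05 in 5 of 6 fits that left out a library. Between the CM it was 0.39 (SE 0.070, 95% interval 0.24 to 0.55, adjusted p = 0.212).

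The other peroxidases and thioredoxins formed a list of 24 genes. Of these, 20 were listed with each CM, of which 8 were called higher and 2 lower with CRC-MPS CM, and 8 higher and 2 lower with ESC CM, with medians of 0.40 and 0.48, where 20.0% and 17.3% of all listed genes were called higher. PRDX1, an abundant peroxiredoxin of the cytosol, rose from 653, 617 and 559 TPM in control to 1184, 1156 and 1092 TPM with CRC-MPS CM (0.91, SE 0.067, adjusted p = 4.20e-05). PRDX1 was called higher with ESC CM too, at 1143, 1083 and 1188 TPM (0.90, SE 0.062). TXN, the thioredoxin that TXNRD1 reduces, rose from 666, 589 and 620 TPM to 974, 951 and 957 TPM (0.62, SE 0.058, adjusted p = 1.23e-04). With ESC CM TXN was at 864, 890 and 892 TPM (0.50), under the fold of 1.5. GPX3, a secreted glutathione peroxidase, rose with CRC-MPS CM (1.01), whereas SESN2, a stress-induced sestrin, fell from 33.1, 53.7 and 46.9 TPM to 13.5, 16.8 and 18.1 TPM (-1.39, SE 0.17, adjusted p = 5.97e-04). Both were also called with ESC CM, GPX3 at 0.90 and SESN2 at -1.88. GPX4 and TXNRD1 are selenoproteins, and of 9 genes for selenoprotein synthesis 2 were listed for CRC-MPS CM and 4 for ESC CM. None of these was called by limma. The 1 and 3 of them with an unadjusted p under 0.05 also passed the adjusted p but not the fold of 1.5. These were SEPHS1 with CRC-MPS CM (0.54, adjusted p = 8.72e-04), and SEPHS1 (0.50, adjusted p = 2.12e-04), SCLY (0.57, adjusted p = 0.0148) and SEPHS2 (-0.28, adjusted p = 0.0337) with ESC CM.

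NQO1 (chr16:69706996-69726951, minus strand), a quinone reductase, had log2 fold changes of nearly the same size with each CM. It was at 586, 570 and 534 TPM in control (563 ± 26.9), 812, 822 and 830 TPM with ESC CM (821 ± 9.12) and 854, 822 and 818 TPM with CRC-MPS CM (831 ± 19.7). The CM libraries overlapped with each other and lay above control. The change of NQO1 on the log2 scale was 0.56 with CRC-MPS CM (SE 0.054, 1.48-fold, adjusted p = 1.52e-04) and 0.55 with ESC CM (SE 0.044, 1.46-fold, adjusted p = 7.17e-05), both under the fold of 1.5. NQO1 was not listed between the CM, and in a single fit of all 9 libraries, joined across the tables against control, that difference was 0.02 (SE 0.045, unadjusted p = 0.709).

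HMOX1 (chr22:35380361-35394214, plus strand), which opens heme and releases its iron, had the lowest level and the next largest change after GCLM. It was at 8.35, 7.15 and 5.64 TPM in control (7.04 ± 1.36), 14.1, 13.0 and 13.3 TPM with ESC CM (13.5 ± 0.592) and 21.5, 18.0 and 18.2 TPM with CRC-MPS CM (19.2 ± 2.00). The 3 groups did not overlap. HMOX1 had a log2 fold change of 1.34 with CRC-MPS CM (SE 0.14, 2.53-fold, adjusted p = 2.31e-04) and 0.86 with ESC CM (SE 0.13, 1.82-fold, adjusted p = 0.00180). Between the CM it was 0.48 (SE 0.097, 95% interval 0.26 to 0.70, adjusted p = 0.325).

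FTH1 (chr11:61959718-61967660, minus strand), the ferritin heavy chain that oxidizes iron for storage, was the most abundant of the 10 transcripts. It was at 5167, 5110.5 and 5229 TPM in control (5169 ± 59.2), 6468, 5852 and 6018 TPM with ESC CM (6113 ± 319) and 7225, 7291 and 7436 TPM with CRC-MPS CM (7317 ± 108), with no overlap. Its log2 fold change was 0.50 with CRC-MPS CM (SE 0.055, 1.42-fold, adjusted p = 3.08e-04) and 0.24 with ESC CM (SE 0.049, adjusted p = 0.0123), both under the fold of 1.5. The second passed the adjusted p in all fits that left out a library except those without ESC CM replicate 1 (0.0748) or replicate 3 (0.0509). Between the CM it was 0.26 (SE 0.051, 95% interval 0.15 to 0.38, adjusted p = 0.300).

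FTL (chr19:48965301-48966878, plus strand), the ferritin light chain, showed a smaller distance between the CM. It was at 2166, 2176 and 2253 TPM in control (2199 ± 47.7), 2898, 2777 and 2834 TPM with ESC CM (2836 ± 60.3) and 3160, 3051 and 2965 TPM with CRC-MPS CM (3059 ± 97.4). The groups did not overlap. Its log2 fold change was 0.48 with CRC-MPS CM (SE 0.054, 1.39-fold, adjusted p = 3.61e-04) and 0.37 with ESC CM (SE 0.041, 1.29-fold, adjusted p = 3.63e-04), both under the fold of 1.5. FTL was not listed between the CM, where the single fit of 9 libraries gave 0.11 (SE 0.043, unadjusted p = 0.0270, adjusted p = 1). The ratio of FTH1 to FTL TPM was 2.35 ± 0.0326 in control, 2.15 ± 0.0679 for ESC CM and 2.39 ± 0.111 for CRC-MPS CM. Both ferritins have many processed copies in the genome, 25 annotated pseudogenes named after FTH1 and 16 after FTL, so their levels are uncertain to the extent that reads were shared with these copies.

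The other genes of iron and heme handling did not move in a single direction. Of 23 genes 14 were listed with CRC-MPS CM, 3 called higher and 2 lower, and 15 with ESC CM, 2 higher and 2 lower, with medians of 0.05 and -0.10. These counts were near or under the shares of all listed genes, 20.0% higher and 19.8% lower with CRC-MPS CM and 17.3% and 19.6% with ESC CM. SLC40A1, the iron exporter ferroportin, fell from 93.4, 86.7 and 97.0 TPM in control to 46.3, 44.7 and 45.6 TPM with CRC-MPS CM (-1.0, SE 0.064, adjusted p = 2.33e-05). HEPH, the oxidase that works with ferroportin, fell from a mean of 27.8 to 7.94 TPM without overlap (-1.69, SE 0.091, adjusted p = 1.24e-05). With ESC CM the log2 fold changes were -0.88 for SLC40A1 and -1.61 for HEPH, both called. TFRC, the transferrin receptor that brings iron in, was higher than in control without passing the fold (249 against 189 TPM with CRC-MPS CM, 0.39, adjusted p = 0.00554). NCOA4, which delivers ferritin for breakdown, stood at 69.8 TPM with CRC-MPS CM against 96.2 TPM in control (-0.46, adjusted p = 9.98e-04), under the fold of 1.5. TFRC (0.31, adjusted p = 0.00139) and NCOA4 (-0.49, adjusted p = 2.78e-04) also passed the adjusted p alone with ESC CM.

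**Figure D2:**
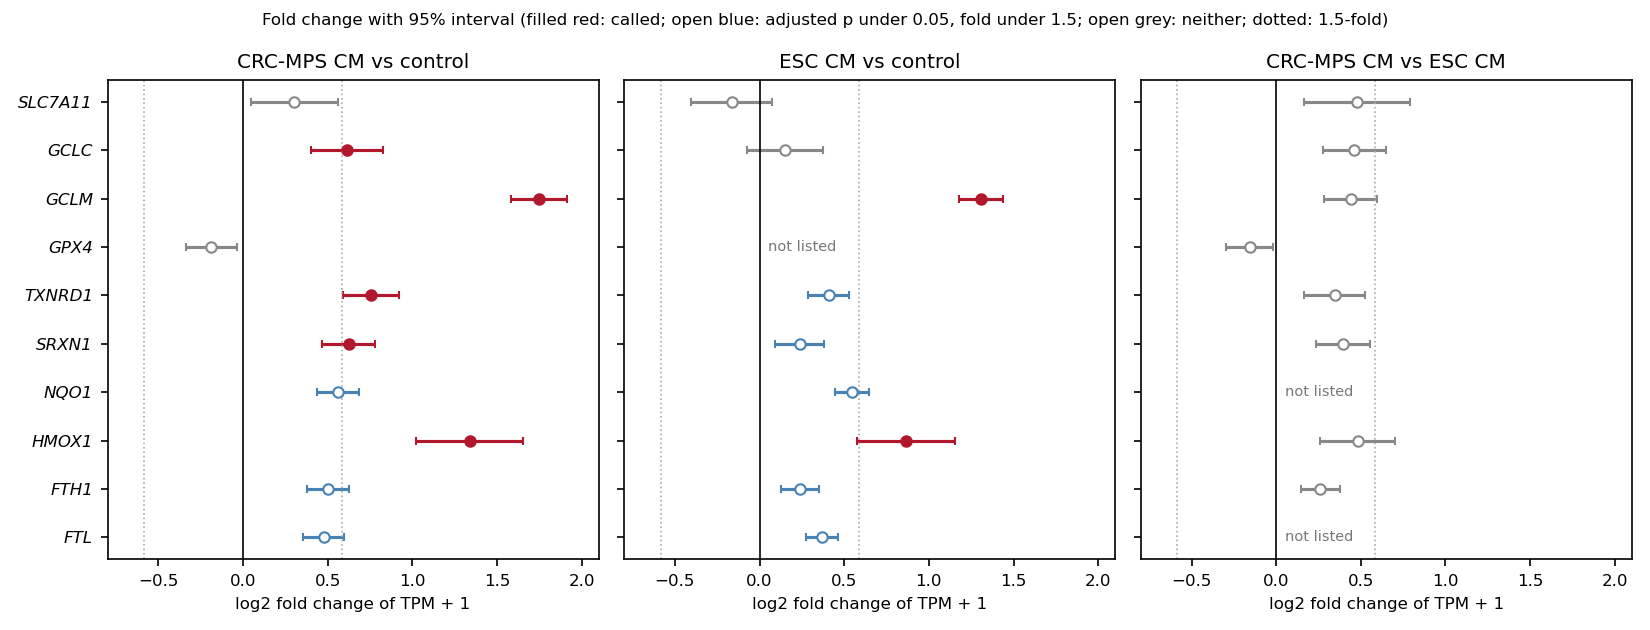
Log2 fold change of each gene on the log2(TPM + 1) scale, with its 95% interval from limma, for each of the 3 comparisons; red points passed the test, blue points passed the adjusted p alone, grey points neither, and a gene that a table does not list has no point. With CRC-MPS CM the values run from -0.19 for GPX4 to 1.75 for GCLM, and between the CM the listed genes other than GPX4 lie between 0.26 and 0.48.

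With CRC-MPS CM 9 of the 10 genes did not overlap with control, where 89.4% of listed genes did not, and with ESC CM 7 of 9 did not, where 90.6% did not. Between the CM all 8 listed genes were without overlap, where 63.6% of listed genes were, and the 7 genes other than GPX4 were higher with CRC-MPS CM. Their median log2 difference, GPX4 included, was 0.42, against 0.15 over all listed genes of that table. Means stood in the order control, ESC CM, CRC-MPS CM, from low to high, for 8 of the 9 genes listed in both tables against control, and for 31.5% of all 8664 genes so listed. Neighbours in that order were apart at both steps for 6 of the 9 (GCLM, TXNRD1, HMOX1, FTH1, FTL and SRXN1) and for 6.74% of the 8664. The order of the members can follow from how they were chosen and is given as a description. The step from control to ESC CM overlapped for GCLC, and the step from ESC CM to CRC-MPS CM overlapped for NQO1. SLC7A11 had overlaps at both steps of its own order, and GPX4 between ESC CM and control. Replicate 1 of CRC-MPS CM was the lowest of its group for 6 genes (SLC7A11, GCLM, GCLC, TXNRD1, FTH1 and SRXN1) and the highest for the other 4, while over listed genes at a mean of 1 TPM or more it was lowest in 45.2% and highest in 36.2%.

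A list of 16 genes took lipid peroxidation together with its repair outside glutathione. With CRC-MPS CM 3 were called higher and none lower among 10 listed, where 20.0% and 19.8% of all listed genes were called so. With ESC CM 3 were called higher and 2 lower among 12 listed, where 17.3% and 19.6% were. AIFM2, also known as FSP1, which reduces coenzyme Q at membranes, rose from 23.8, 22.6 and 21.4 TPM in control to 46.3, 43.6 and 41.8 TPM with CRC-MPS CM (0.93, SE 0.077, adjusted p = 6.93e-05). With ESC CM it rose to 38.7, 38.1 and 38.8 TPM (0.75, SE 0.063). DHODH, which reduces coenzyme Q in mitochondria, rose by 0.88 and 0.92 with CRC-MPS CM and ESC CM in that order. COQ2, an enzyme of coenzyme Q synthesis, rose by 0.92 and 0.80. In the same order ACSL3 was at -0.56 and -0.68 and POR at -0.58 and -0.59, both called lower with ESC CM alone. ACSL4, which loads membranes with oxidizable fatty acids, was listed in no table.

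Of 15 other known NRF2 targets 14 were listed with CRC-MPS CM, of which 8 rose by the call and none fell by it. With ESC CM 13 were listed, of which 7 rose by the call and none fell by it. The medians were 0.71 and 0.68, where 20.0% and 17.3% of all listed genes were called higher. Without the fold, 11 targets passed the adjusted p upward and 2 downward for CRC-MPS CM, and 10 and 2 for ESC CM. The downward targets were ABCC3 (-0.36, adjusted p = 0.0136) and ETHE1 (-0.47, adjusted p = 0.00324) for CRC-MPS CM. The same genes passed downward for ESC CM, at -0.34 and -0.32 in that order. UGDH, which makes the sugar donor for glucuronidation, rose from 66.4, 67.7 and 70.1 TPM in control to 155, 171 and 174 TPM with CRC-MPS CM (1.28, SE 0.063, adjusted p = 9.43e-06), without overlap. UGDH was at 128, 122 and 126 TPM with ESC CM. PIR, a nuclear iron protein, rose by 1.48 and TRIM16L by 1.5 with CRC-MPS CM, and by 1.25 and 1.34 with ESC CM. NFE2L2, the gene of NRF2 itself, was not listed for CRC-MPS CM and control. It was at 89.2 TPM with ESC CM against 98.0 TPM in control (-0.13, adjusted p = 0.642) and at 110 TPM with CRC-MPS CM against 88.9 TPM with ESC CM (0.30, adjusted p = 0.661). KEAP1, which targets NRF2 for degradation, had log2 fold changes of 0.32 for CRC-MPS CM and 0.43 for ESC CM, neither called, and BACH1, a repressor at the same elements, was listed at 17.8 TPM with ESC CM against 25.6 TPM in control (-0.52, adjusted p = 0.0544). Of 13 regulators 2 were called lower with CRC-MPS CM among 10 listed (MAFF and NFE2L1), where 19.8% of all listed genes were. With ESC CM 4 were called lower among 13 listed (those and ATF4 and SQSTM1), where 19.6% were. The share with CRC-MPS CM was thus near that of all genes, and ATF4 missed the fold there only by a very small margin (-0.58, adjusted p = 8.06e-05). No regulator was called higher, though 3 passed the adjusted p alone in that direction with each CM. Between the CM limma called 0 of the 40 listed genes of these 9 lists, and 28 of them had an unadjusted p under 0.05.

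**Figure D3:**
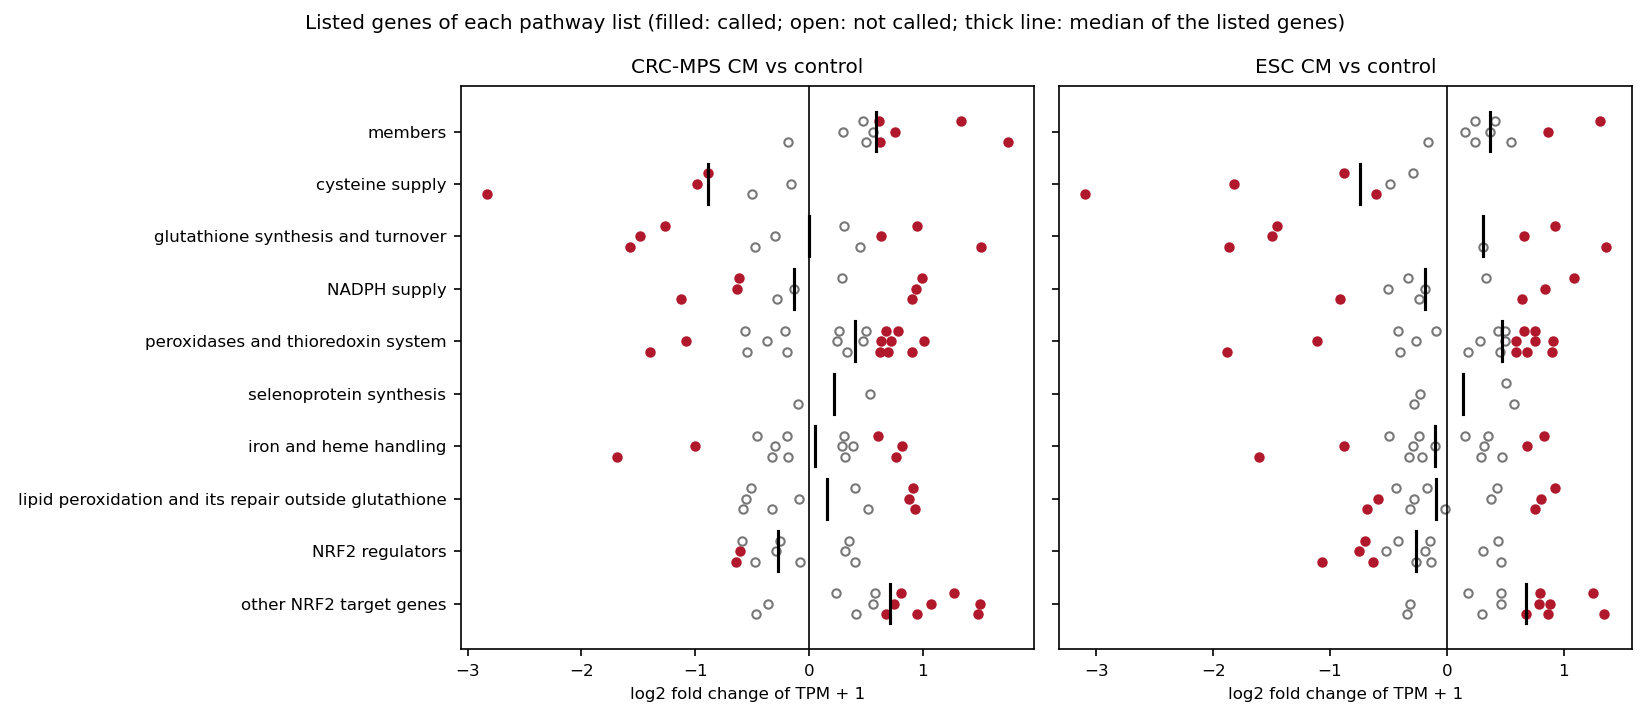
Log2 fold change on the log2(TPM + 1) scale of the listed genes of each of the 9 lists and of the members, for either CM relative to control; points are genes and the bar is the median. The other NRF2 targets have medians of 0.71 and 0.68, and cysteine supply -0.88 and -0.74.

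The genes most like each member were taken by Pearson r of log2(TPM + 1) over the 9 libraries, among 7977 genes listed in both tables against control at a mean of 1 TPM or more, and are given as a description, since the 9 libraries fall into 3 groups and genes with the same order of groups can score high. For GCLM they were PLS3 (0.998), UGDH (0.996) and PSMA1 (0.996), and for NQO1 they were IFRD2 (0.999), MRPS34 (0.998) and PSMD13 (0.998). HMOX1 was most like SYNJ2 (0.997), and FTL most like AKR1C1 (0.994) and AKR1C2 (0.991), which reduce carbonyls. TXNRD1 was most like GLIPR1 (0.993), FTH1 most like CEACAM5 (0.988) and SRXN1 most like TRIM16 (0.986). GCLC was most like STAM (0.980). SLC7A11 stood apart, since its nearest gene was FEM1C (0.956) and its r with the other members ran from 0.09 with NQO1 to 0.76 with GCLC.

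Library totals over listed genes were 747343 to 752614 TPM for CRC-MPS CM and control, 746530 to 752538 TPM for ESC CM and control, and 277724 to 285920 TPM between the CM, and the depth of the libraries is unknown because no counts were used here. Of 10 colon epithelial markers 9 were listed against control for each CM, summing to 10630 to 11682 TPM in control and 8171 to 9500.2 TPM with CRC-MPS CM, with KRT20, CDX2, CDH1 and CDH17 lower by the call and CEACAM5 higher. Of 24 markers of adipocytes, stroma, leukocytes and endothelium 4 were listed with CRC-MPS CM, and the adipocyte sum, from CIDEC alone, was 2.99 to 4.35 TPM in control and 0.937 to 1.36 TPM with CRC-MPS CM. The stromal sum, from COL1A1 alone, was 1.10 to 2.61 TPM in control and 0.683 to 1.59 TPM with CRC-MPS CM. The leukocyte sum, from CD68 and LYZ, was 1963 to 2252 TPM and 1678 to 1715 TPM in the same order. That sum was nearly all LYZ, with means of 2110 and 1681 TPM against 23.9 and 10.9 TPM for CD68. It therefore gives no content of leukocytes, and no endothelial marker was listed. With ESC CM the epithelial sum was 5890 to 6188 TPM against 7210.4 to 7943 TPM in control, over its own 9 listed markers. The part of these shifts in the results on the 10 genes was not tested.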

How the data were processed

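Transcript levels of HT29 cells were given for 9 libraries, 3 each of control, ESC CM and CRC-MPS CM. The submitters' processing notes name STAR 2.6.1d, kallisto 0.46.0 and genome build hg38, and DESeq2 as used by the authors with no version, while the annotation was not given in the sources used here. There are 3 tables deposited by the authors, each of 6 libraries, whose values per library are TPM as far as the values show, since no header names the unit. Each table holds only genes with a p-value under 0.05 in the authors' own test, which was checked for every gene. The authors' columns of mean level, fold change, statistic and p-values were otherwise not used. Depth is unknown, so no interval that needs counts was computed. The same library differed between tables by a median of 0.0450% to 0.557% over genes at 1 TPM or more. Gene names turned into dates by a spreadsheet (14, 13 and 4 for CRC-MPS CM and control, ESC CM and control, and the CM) were named nowhere.

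Log2(TPM + 1) values were compared with limma 3.58.1 (R 4.3.3, empirical Bayes with a trend, two-sided), within each table, with Benjamini-Hochberg adjustment over the 58780 genes of GENCODE release 29, unlisted genes ranked last. Listed genes had already been selected on a p-value, which an adjustment over them alone does not account for. The fit was tested on simulated data. Called genes had an adjusted p under 0.05 and a fold over 1.5. The 10 genes and all lists were chosen with earlier results of these data known. Other genes named were direct partners of a member by role, up to 4 called genes per list and comparison by size of fold change, and the 3 genes most like a member by Pearson r, of which not all are printed; the values of 1 partner are not reported here. Gene coordinates are of hg38. Alternatives were pseudocounts of 0.1 and 5, a mean of at least 1 TPM, other adjustments and folds, centring on the median, a single fit of 9 libraries, the replicate number as a block, and each library left out. Python 3.11.15, pandas 2.3.3, numpy 2.4.6 and matplotlib 3.10.9 were used.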

Additional observations from a re-analysis of the deposited data

Results flagged for a closer look

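SLC7A11 stood on opposite sides of the control mean with the CM. Every ESC CM library was below it, the highest by -0.0362 on the log2 scale, and every CRC-MPS CM library was above it, the lowest by 0.0198. Both groups shared the control libraries, both overlapped with them, and the difference between these effects was not tested. In the direct comparison of the CM the log2 difference of SLC7A11 was 0.48 (SE 0.14) with a limma adjusted p of 0.774.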

How the results depend on the processing

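No log2 fold change of a member changed sign under the alternatives run. The median log2 fold change over all listed genes did: at a mean of at least 1 TPM it went from -0.01 to 0.18 with CRC-MPS CM and from -0.05 to 0.14 with ESC CM, and in the single fit of 9 libraries it was 0.06 with CRC-MPS CM. With CRC-MPS CM relative to control, 3982 genes and 5 members were called. The counts were 2377 genes with a pseudocount of 5, 7145 genes and 8 members with no minimum fold, 1304 genes and 2 members (GCLM and HMOX1) at a fold over 2, 3 members with libraries centred on their median, and 8952 genes and 10 members with no minimum fold and adjustment over the listed genes alone. With ESC CM relative to control, 3697 genes and 2 members were called, with counts of 2206 genes with a pseudocount of 5, 7357 genes and 7 members with no minimum fold, 1182 genes and 1 member (GCLM) at a fold over 2, 2 members with centred libraries, and 9004 genes and 7 members with no minimum fold and adjustment over the listed genes alone. Between the CM 14 genes and 0 members were called: 7 genes with a pseudocount of 5, 26 at a mean of at least 1 TPM, 157 adjusted over the listed genes alone, 8 in the single fit of 9 libraries, 40 adjusted over protein-coding genes, and 1024 genes and 7 members (all listed but GPX4) adjusted over the listed genes alone with no minimum fold. The last 2 adjustments were chosen after the data were seen, and in these fits the lowest adjusted p of a member was that of GCLM (0.0536 and 0.00761). Leaving out each library in turn gave 3755 to 4078 genes and 4 to 5 members with CRC-MPS CM, 3435 to 3709 genes and 2 members with ESC CM, and 1 to 25 genes and 0 members between the CM. In the last of these the counts were 3, 1 and 2 without ESC CM replicate 1, 2 or 3 and 25, 1 and 2 without CRC-MPS CM replicate 1, 2 or 3. Without CRC-MPS CM replicate 1 the difference of GCLM between the CM had an adjusted p of 0.0378, under the fold of 1.5. Deviations of same-numbered libraries from their group means had correlations of 0.10, -0.05 and 0.20 for CRC-MPS CM and control. They were -0.07, -0.05 and -0.12 for ESC CM and control, and -0.25, -0.10 and -0.38 between the CM. Libraries of different numbers gave values from -0.19 to 0.31. With 3 libraries per group these values cannot settle whether equal numbers stand for a shared culture or day. With the replicate number as a block 4023, 3716 and 3 genes and 5, 2 and 0 members were called. Of the other values per member, 264 kept direction and side of the threshold, 25 passed it only under an alternative and 6 lost it, library omissions aside. Centring moved the median of all genes by less than 0.1 in each comparison, and the mean of at least 1 TPM moved it by more than that against control. Depth is unknown, so counting error could not be set beside the changes, HMOX1 being the member it would touch most, and a gene absent from a table has no value there.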

Other observations

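SLC7A11, SLC3A2, CTH, CHAC1 and SESN2, all known targets of the stress-response transcription factor ATF4, each had their lowest ESC CM level in replicate 3, a pattern picked out after the values were seen. Of all 9138 genes listed with ESC CM and control at a mean of at least 1 TPM, 33.8% had their lowest ESC CM level in that library. GCLC, TXNRD1, NFE2L2, BACH1, HEPH and TRIM16L did so too. The levels there were 44.2 TPM for SLC7A11, 240.0 TPM for SLC3A2, 3.97 TPM for CTH, 8.66 TPM for CHAC1 and 6.29 TPM for SESN2. The other ESC CM libraries were at 57.8 and 58.0 TPM for SLC7A11, 349 and 361 TPM for SLC3A2, 9.10 and 9.63 TPM for CTH, 23.9 and 25.6 TPM for CHAC1, and 14.2 and 14.9 TPM for SESN2. Within control the 5 genes had their lowest level in replicate 1, as 31.6% of all these genes did, and 13.4% showed both. GCLC, TXNRD1, NFE2L2 and BACH1 were among those that showed both. ATF4 itself was called lower with ESC CM (465 against 719 TPM in control, log2 fold change -0.63). It missed the fold of 1.5 only by a very small margin with CRC-MPS CM (481 against 722 TPM, -0.58, adjusted p = 8.06e-05).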
